A study of Homo sapiens with 4 samples.

Results

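The genes described are 29 p53 target genes, taken as the rows of the deposited table that map to one of these genes alone. All 29 were found among the 19891 genes named on the array, in 72 probe sets (a probe set is the group of short probes that reads a transcript), and each gene is represented by its probe set with the highest mean signal over the 4 arrays. The tested cells were SAS, a line from a human oral squamous cell carcinoma, carrying a retroviral short hairpin RNA against SPINT1, the gene of the protease inhibitor HAI-1. The control was the same line given a hairpin of scrambled sequence in the same vector. Both groups were thus infected, both grew in the same serum-containing medium, and each was read on 2 Affymetrix arrays. The labels do not say whether the infected cells were clones or pools. Nor do they say that the arrays came from separate cultures, so the p-values cover the spread among these arrays only, and that spread may be technical. The p53 status of the line is not given in the labels, and p53 protein and activity were not measured. The hairpin sequences, shown because they are all that separates the groups by design, are these.
SPINT1 target: gggcaggcatagacttgaagg
Scrambled control: gggacggagatttcacgagga

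The transcription factor p53 is held low by MDM2, a ubiquitin ligase that p53 itself induces, and by the related protein MDM4. DNA damage and other stresses free p53, which then switches on genes that stop the cell cycle, repair DNA, adjust metabolism or kill the cell. The p53 pathway is often disabled in squamous carcinoma, where the related factor p63 marks the basal cell state. Most of these genes also answer to other factors, so their transcripts are not a direct measure of p53.

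Of all probe sets, between 45.6% and 48.1% were called present on each array (a detection p below 0.05). Across probe sets, which do not count as replicates, Pearson's r was 0.983 for the knockdown pair of arrays and 0.987 for the control pair, against 0.961 to 0.964 across groups. SPINT1 read 135 and 282 in knockdown cells, against 1451 and 1445 in control cells (log2 change -2.79, limma adjusted p = 4.2e-05), and its other, dim probe set stood at -0.11 (adjusted p = 0.79). All 11 squamous epithelial markers looked up were called present on at least 1 array, 9 of them on all 4. Of the other cell types' markers, 2 of 5 leukocyte, 2 of 5 fibroblast and 3 of 5 endothelial genes were called present on at least 1 array, and the genes present on none included PTPRC, CD3E, COL1A2, PDGFRB, DCN, VWF and KDR. The endothelial markers CDH5 and TEK and the leukocyte marker LAPTM5 rose (limma adjusted p = 0.021, 0.029 and 0.023). PECAM1 and CD14, the other genes tested on these lists, stood at log2 changes of -0.18 and -0.19 without passing (adjusted p = 0.77 and 0.46). LAPTM5 read 139 and 111 in knockdown cells, against 29.1 and 52.7 in control cells. Both control signals lay under 55.4, the level that the mean on the log2 scale had to reach for testing. LAPTM5 was thus tested only through its knockdown signals. The summed signal of the 5 endothelial markers was 980 and 1345 in knockdown cells, against 655 and 636 in control cells. Of this, CDH5 alone read 572 and 1091, against 410 and 396. The summed signal of the 5 leukocyte markers was 799 to 833 in knockdown cells, against 677 to 880 in control cells. Of this, CD14 alone read 620 and 569, against 757 and 607. The summed signal of the 5 fibroblast markers was 335 and 355, against 312 to 431. The part of these signals in the results below was not tested.

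The 29 genes did not move as a block. By limma's moderated test, with p-values adjusted over all 27307 probe sets tested, 5 fell in knockdown cells (CCNG1, GADD45A, DDB2, RRM2B and MDM2), 3 rose (CCNG2, TP53INP1 and PMAIP1) and 21 did not pass. Over all 12572 genes tested, 19.3% passed, 8.74% higher and 10.6% lower in knockdown cells. The members' share was 27.6%, and their median log2 change was 0.02, against 0.02 for all genes tested. Members and lists were chosen with earlier results of these data known, so no share given here or below is a test. The number of members called depended on single arrays, as did the number of probe sets called over the whole table. RNA came from whole cultures, so fewer cells with a transcript and less of it per cell cannot be told apart. The groups did not overlap for 21 members, 9 higher and 12 lower in knockdown cells, where 61.6% of all genes did not overlap. Of the 8 called members, CCNG1 alone changed by more than 2-fold. Signals are MAS5 values on a linear scale, and every log2 change is a difference of log2(signal + 16), knockdown minus control, which understates the change of dim genes. With 2 arrays against 2 the smallest two-sided p of an exact permutation test is 0.333, and each p printed here comes from limma's variance model.

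**Figure D1:**
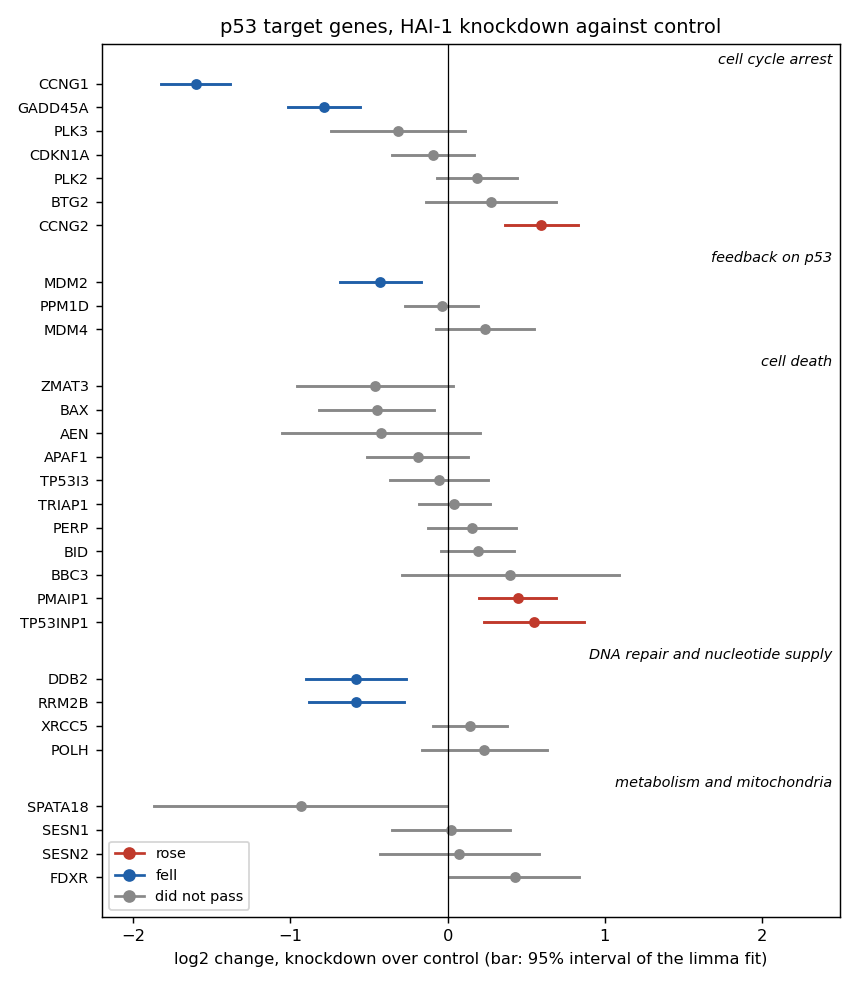
Log2 change (knockdown over control, x axis) of each of the 29 p53 target genes, grouped by role and ordered within it; the point is the limma estimate from 2 arrays per group and the bar its 95% interval. CCNG1 at -1.60 lies apart from the other members, which range from -0.94 (SPATA18) to 0.60 (CCNG2).

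Members listed under cell cycle arrest moved in both directions. CCNG1 encodes cyclin G1, an atypical cyclin induced by p53 that recruits the phosphatase PP2A to MDM2. It read 2144 and 2104 in knockdown cells, against 6402 and 6563 in control cells. The arrays of each group lay close together and far from the other group. The signal averaged 2124 ± 28.1 (SD) in knockdown cells and 6483 ± 114 in control cells (n = 2 each), a 3.04-fold fall (log2 change -1.60, SE 0.10, limma adjusted p = 3.9e-06). It has 1 probe set on the array, aligned by the authors' file to the plus strand of chromosome 5, from 162797204 to 162804598, on a build that the file does not name.

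CCNG2, which encodes the related cyclin G2, a growth-inhibitory cyclin of resting cells, moved the other way. Its brightest probe set read 5336 and 5263 in knockdown cells, against 3290 and 3719 in control cells, a 1.51-fold rise (log2 change 0.60, SE 0.11, limma adjusted p = 0.0032). Both knockdown arrays lay above both control arrays. The 3 further CCNG2 probe sets tested had log2 changes between 0.12 and 0.19 and did not pass (adjusted p 0.48 to 0.69), so the rise rests on 1 probe set. The mean over the gene's probe sets gave 0.27 (adjusted p = 0.16), and without control array 1 the brightest probe set gave 0.51 (adjusted p = 0.072).

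GADD45A, a growth arrest gene induced by DNA damage that acts on stress kinases and on DNA repair, read 2980 and 3308 in knockdown cells, against 5448 and 5407 in control cells. The groups were separated by more than either spread. It fell 1.72-fold (log2 change -0.79, SE 0.10, limma adjusted p = 0.00052), on its only probe set.

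CDKN1A, which encodes p21, the cyclin-dependent kinase inhibitor through which p53 halts the cycle, read 1488 and 1727 in knockdown cells, against 1657 and 1761 in control cells. These groups overlapped, and the log2 change of -0.09 had a 95% interval from -0.35 to 0.17 (limma adjusted p = 0.66). BTG2, an antiproliferative gene, stood at 0.28 (interval -0.14 to 0.69, adjusted p = 0.36). The polo-like kinase genes PLK2 and PLK3 stood at 0.19 and -0.31 (adjusted p = 0.32 and 0.31). In all, 1 of the 7 members of this role rose, 2 fell and 4 did not pass, a share of 42.9% called, beside 19.3% of all genes.

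**Figure D2:**
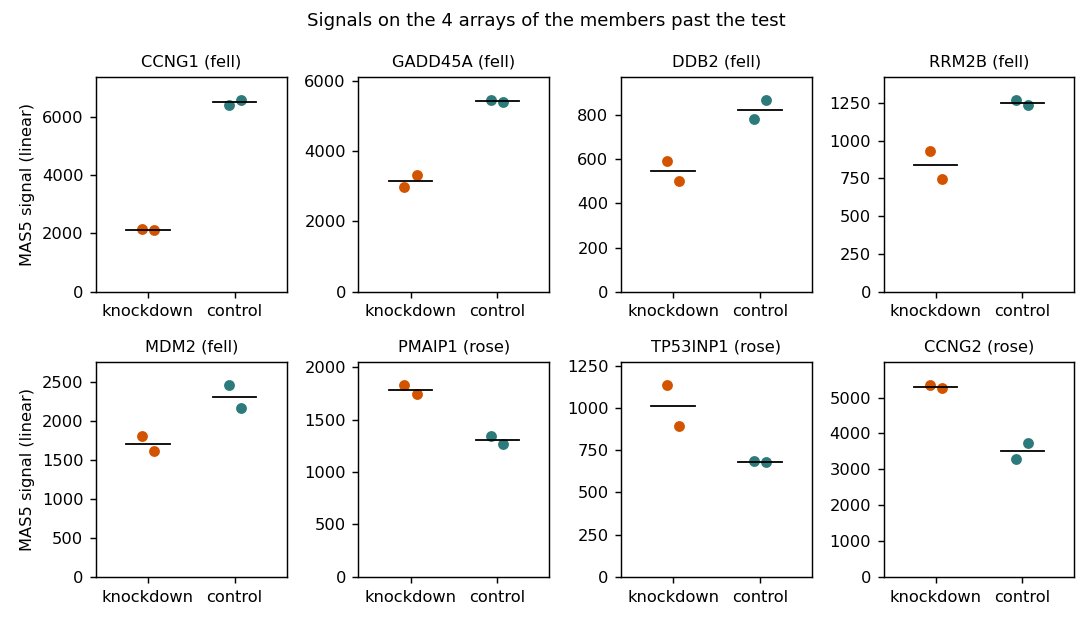
MAS5 signal (linear, each panel's axis starting at 0) on the 2 knockdown and 2 control arrays of the 8 members past the test; points are arrays and the line is the group mean. Groups are separated in every panel, most widely for CCNG1 (2104 to 2144 against 6402 to 6563).

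Among the genes that feed back on p53, MDM2 was lower. Its brightest probe set read 1808 and 1614 in knockdown cells, against 2456 and 2164 in control cells, a 1.35-fold fall (log2 change -0.43, SE 0.12, limma adjusted p = 0.030). A second bright probe set, present on all 4 arrays, read 1054 and 816 in knockdown cells, against 1169 and 1301 in control cells. Its log2 change of -0.41 was close to the first but did not pass (adjusted p = 0.084). Of 9 MDM2 probe sets, 4 dimmer ones lay under the filter, and the 3 other tested ones ranged from -0.71 to 0.74 without passing. The MDM2 call was lost without control array 1 (adjusted p = 0.28), without control array 2 (0.064) and without knockdown array 2 (0.078). The mean over the gene's probe sets gave -0.16 (adjusted p = 0.62).

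MDM4, which blocks the activating domain of p53, read 2439 and 1969 in knockdown cells, against 1654 and 2076 in control cells, and these overlapped (log2 change 0.24, limma adjusted p = 0.29). Its 5 further probe sets ranged from -0.33 to 0.36 and did not pass. PPM1D, the phosphatase gene WIP1, read 1743 and 1709 in knockdown cells, against 1759 and 1788 in control cells. Its log2 change of -0.04 had a 95% interval from -0.27 to 0.20, so a change of the size of MDM2's lay outside it.

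Of the 11 cell death genes, 2 rose, none fell and 9 did not pass, a share of 18.2% called, near the 19.3% of all genes. PMAIP1, which encodes NOXA, a BH3-only protein that counters the survival protein MCL1, was higher on both of its probe sets. The brighter read 1826 and 1741 in knockdown cells, against 1341 and 1266 in control cells (log2 change 0.45, SE 0.11, limma adjusted p = 0.019). The other read 962 and 1159 in knockdown cells, against 643 and 583 in control cells (log2 change 0.77, SE 0.14, adjusted p = 0.0037). PMAIP1 is the only member with a call on more than 1 probe set. On the brighter one the call was lost without control array 1 (adjusted p = 0.090) and without control array 2 (0.16).

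TP53INP1, a nuclear stress protein gene that promotes p53-dependent death and autophagy, read 1133 and 891 in knockdown cells, against 685 and 679 in control cells. It rose 1.46-fold (log2 change 0.55, SE 0.14, limma adjusted p = 0.026). The knockdown arrays were further apart than the control arrays, and without knockdown array 1 the change was 0.38 (adjusted p = 0.12). Without control array 1, and likewise without control array 2, the adjusted p was 0.10. Its 2 further probe sets lay under the filter and were called present on no array.

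The other death genes split in both directions without passing. BAX, the pore-forming protein of the outer mitochondrial membrane, read 492 and 394 in knockdown cells, against 657 and 564 in control cells. The groups did not overlap, yet the log2 change of -0.45 (interval -0.82 to -0.09) missed the threshold (limma adjusted p = 0.094), passing without knockdown array 1 (0.041). Its second probe set stood at -0.25 (adjusted p = 0.43).

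BBC3, which encodes the BH3-only protein PUMA, read 115 and 192 in knockdown cells, against 87.0 and 136 in control cells. The arrays of a group differed by more than the groups did (log2 change 0.40, interval -0.29 to 1.09). BID, a BH3-only link from death receptors to mitochondria, had log2 changes of 0.19, 0.0032 and -0.33 on its 3 probe sets. The brightest of these aligned to 2 places in the genome, so another locus may contribute to its signal. APAF1, the scaffold of the apoptosome, stood at -0.19 (adjusted p = 0.43).

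PERP, a p53 and p63 target of desmosomes in stratified epithelium, read 24229 and 28949 in knockdown cells, against 24549 and 23034 in control cells. It overlapped (log2 change 0.16, limma adjusted p = 0.46), and a second bright probe set gave 0.13 (adjusted p = 0.48). Without knockdown array 1 the first passed (0.28, adjusted p = 0.019). TP53I3, an oxidoreductase gene known as PIG3, stood at -0.05, and TRIAP1, a small inhibitor of apoptosis, at 0.04 (interval -0.18 to 0.27). ZMAT3, an RNA-binding protein gene, stood at -0.46 (adjusted p = 0.20) with no overlap. AEN, a nuclease gene, stood at -0.42 but was called present on no array.

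**Figure D3:**
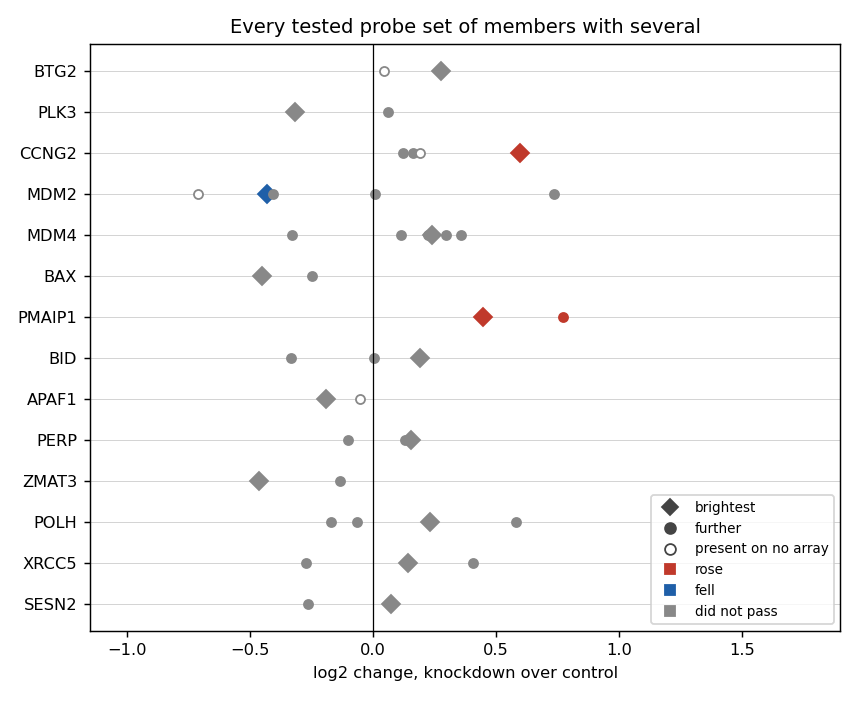
Log2 change (knockdown over control, x axis) of every tested probe set of the 14 members that have more than 1 tested; diamonds are the brightest probe set, circles the further ones, open symbols those called present on no array, and colour the limma call. Both PMAIP1 probe sets rose, whereas the CCNG2 and MDM2 calls rest on the brightest alone.

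Of the 4 members with a role in DNA repair and nucleotide supply, 2 fell and 2 did not pass, beside 10.6% of all genes that fell. DDB2, the damage-recognition subunit of the nucleotide excision repair complex UV-DDB, read 592 and 503 in knockdown cells, against 783 and 869 in control cells. It fell by 0.58 on the log2 scale (SE 0.15, limma adjusted p = 0.020). RRM2B, the p53-inducible subunit of ribonucleotide reductase, read 932 and 743 in knockdown cells, against 1268 and 1236 in control cells. It fell 1.49-fold (log2 change -0.58, SE 0.14, limma adjusted p = 0.015). Each has 1 probe set, the groups did not overlap, and both calls were lost on leaving out any 1 of 3 arrays. For DDB2 the adjusted p was then 0.064 (knockdown array 2), 0.060 (control array 1) and 0.16 (control array 2), and for RRM2B 0.054, 0.087 and 0.060.

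POLH, the translesion polymerase eta, stood at 0.23 on its brightest probe set (limma adjusted p = 0.44). A second, nearly as bright, read 316 and 278 in knockdown cells, against 179 and 208 in control cells, a log2 change of 0.58 that did not pass (adjusted p = 0.082). XRCC5 encodes Ku80, which binds broken DNA ends. Its 2 bright probe sets lay on opposite sides of 0. The first read 14637 and 14569 in knockdown cells, against 12764 and 13676 in control cells (log2 change 0.14, interval -0.09 to 0.38). The second read 5555 and 5648 in knockdown cells, against 6901 and 6620 in control cells (log2 change -0.27, adjusted p = 0.098). Neither pair of groups overlapped, so no single direction can be given for XRCC5.

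None of the 4 metabolic and mitochondrial members passed. The sestrin genes SESN1 and SESN2, whose products restrain mTORC1, overlapped between groups, at log2 changes of 0.02 and 0.07 (limma adjusted p = 0.95 and 0.87). FDXR, the mitochondrial ferredoxin reductase, read 366 and 390 in knockdown cells, against 308 and 249 in control cells (log2 change 0.43, interval 0.02 to 0.83, adjusted p = 0.15). SPATA18, a mediator of mitochondrial quality control known as MIEAP, read 53.5 and 22.5 in knockdown cells, against 113 and 59.8 in control cells. It was called present on both control arrays but on neither knockdown array. Its log2 change of -0.94 did not pass (SE 0.42, interval -1.87 to -0.0049, adjusted p = 0.17), and stood at -0.51 without knockdown array 2 and -0.55 without control array 1. Both knockdown signals lay under 55.4, the level that the mean on the log2 scale had to reach for testing. SPATA18 was thus tested only through its control signals. No weight is put on its interval or p.

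SPATA18 lies on chromosome 4 among genes that were lower as well. Of its 20 nearest tested genes, 9 fell and none rose, with a median log2 change of -0.53. For the other members with a single alignment the median of the neighbours lay between -0.19 (XRCC5) and 0.26 (PLK2). The neighbours of CCNG1 had a median of 0.11, with 5 risen and 1 fallen, and those of GADD45A one of 0.25, with 6 risen and none fallen.

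**Figure D4:**
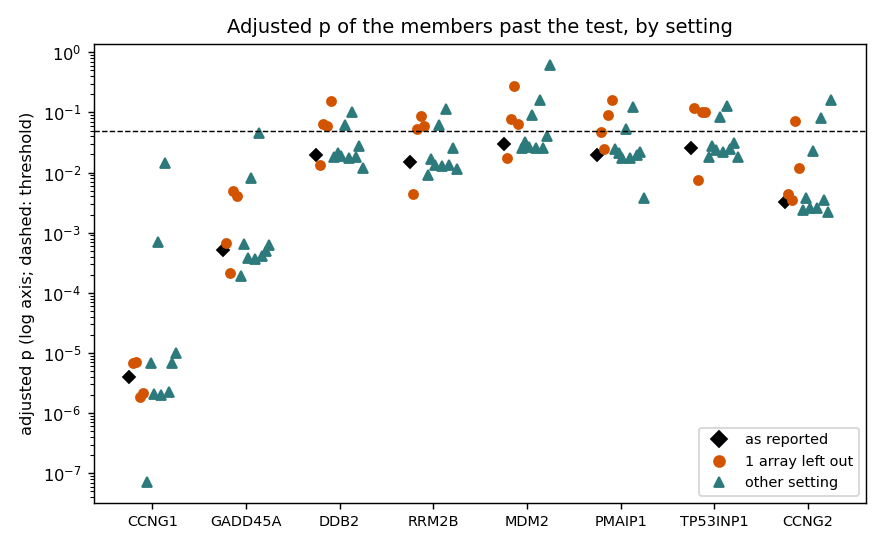
Adjusted p of limma's test (log axis) for the 8 members past the test, as reported (diamond), with 1 array left out (circles) and under the other settings (triangles); the dashed line is the threshold of 0.05. All points of CCNG1 and GADD45A lie below the line, and each of the other 6 members has points above it.

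The promoter windows of the members were read from RefSeq (GRCh38.p14, 250 bases before to 50 after each annotated start). Windows were found for 25 of the 29 members, 38 windows in all. The called members GADD45A, RRM2B and TP53INP1 had no window, nor had XRCC5, so these were not searched. They were searched for the consensus p53 decamer, a 10-base motif named by its factor here that reads the same on both strands, and p53 binds a pair of such decamers with 0 to 13 bases between them. An exact decamer stood in 6.63% of all 35116 windows and in 5 of the 38 member windows. An exact pair stood in 10 windows in all. The downstream of the 2 DDB2 windows is 1 of these, and is shown because no other member window holds such a pair. Its decamers, in capitals, start 5 and 16 bases after the annotated start, with 1 base between them (chr11:47214724-47215023, plus strand).
DDB2: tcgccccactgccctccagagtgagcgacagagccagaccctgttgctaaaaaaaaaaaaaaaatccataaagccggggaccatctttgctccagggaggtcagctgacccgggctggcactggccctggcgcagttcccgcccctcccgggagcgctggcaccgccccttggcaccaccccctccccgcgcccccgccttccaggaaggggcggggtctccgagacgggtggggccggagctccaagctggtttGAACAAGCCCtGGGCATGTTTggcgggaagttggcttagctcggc

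Single decamers stood in the windows of 4 further members, none of them past the test, and are given for comparison with the DDB2 pair. Those of AEN and FDXR have the same letters.
PLK2: AGACTTGCTT
SESN1: GGACAAGTCT
AEN: GGGCTTGCCC
FDXR: GGGCTTGCCC

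No exact decamer was found in the windows of CCNG1, CCNG2, MDM2 or PMAIP1, which says only that these letters are not in these windows. The search allowed no mismatch, so a p53 site that departs from the consensus by even 1 letter was not counted. Whether these windows hold such sites was not tested. The upstream of the 2 CCNG1 windows is shown because that gene changed most (chr5:163437321-163437620, plus strand). Capitals mark the CCAAT box on either strand, that is CCAAT or its reverse complement ATTGG. This motif was chosen after the sequence was seen, and it overlaps no decamer, since the window holds none. The window holds 4 such boxes, and 0.94% of all windows hold at least 4, a share that is no test given that choice. The CCNG2 window holds 0, and 34.6% of all windows hold at least 1. A DDB2 window holds 3, and MDM2, BAX, AEN and SESN2 have windows with 2, of which only MDM2 was called. The windows of the remaining members hold 1 or 0. A part of these boxes in the changes was not tested.
CCNG1: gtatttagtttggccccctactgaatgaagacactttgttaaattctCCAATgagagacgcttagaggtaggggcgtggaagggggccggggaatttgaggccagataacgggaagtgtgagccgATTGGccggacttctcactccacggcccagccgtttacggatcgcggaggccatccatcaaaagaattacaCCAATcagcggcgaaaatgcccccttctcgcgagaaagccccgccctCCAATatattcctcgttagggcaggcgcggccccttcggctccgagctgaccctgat

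The transcripts of the related factors p63 and p73 did not pass limma's test. TP63, abundant in basal squamous cells, stood at a log2 change of -0.02 (interval -0.26 to 0.21) on its brightest probe set. Its further tested probe sets stood at -0.15, -0.33 and 0.38 without passing (limma adjusted p = 0.70, 0.36 and 0.56), the last called present on no array. TP73 stood at 0.08 (interval -0.55 to 0.72).

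Of 28 p53 family members and regulators, all tested, 2 rose, 3 fell and 23 did not pass. The falls were PPP1R13L, which encodes the p53 inhibitor iASPP (log2 change -0.62, limma adjusted p = 0.010), CDKN2A (-0.46, adjusted p = 0.014) and HIPK2 (-0.52, adjusted p = 0.019). CDKN2A encodes p16 and, from another frame, ARF, an MDM2 inhibitor, and HIPK2 is a kinase that phosphorylates p53. The rises were USP7, a deubiquitinase of MDM2 and p53 (0.41, adjusted p = 0.021), and TP53BP2, which encodes the p53 co-activator ASPP2 (0.47, adjusted p = 0.039). The share past the test, 17.9%, was near the 19.3% of all genes. Leaving out single arrays changed the number called, here as over all probe sets.

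Of 62 further p53-induced genes tested, 8 rose, 12 fell and 42 did not pass, a share of 32.3% beside the 19.3% of all genes, and their median log2 change was -0.04. FAS, a death receptor gene, read 1059 and 1219 in knockdown cells, against 2383 and 2260 in control cells (log2 change -1.02, limma adjusted p = 0.00021). Larger falls included those of E2F7, a repressor of the cell cycle (-1.08, adjusted p = 0.00016), DRAM1, a lysosomal autophagy gene (-1.24, adjusted p = 0.00026), and TRIM22 (-1.76, adjusted p = 0.00047). FUCA1, a lysosomal fucosidase gene, read 549.5 and 508 in knockdown cells, against 179 and 205 in control cells (log2 change 1.39, adjusted p = 0.00045). These genes, like the 29 members, held rises and falls side by side. The number called again depended on single arrays, as it did over all probe sets.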

How the data were processed

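The authors deposited MAS5 signals (linear intensities, 1 per probe set) with a detection p-value on each array; MAS5 is named, without a version, in the submitters' processing notes. The deposited log2 values were recomputed for all 54675 rows, within 1e-05, by subtracting the row median from the log2 signal. A further 8 columns (calls, probe numbers) were not used. For the log2 step and the alignments, software and genome build are not stated. MAS5 subtracts background before summarising, so low signals are noisy.

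Probe sets were named by Entrez number through RefSeq (GRCh38.p14): 39614 of 54613 matched, 1093 kept the file's symbol, 1044 held several genes and 12862 none. Signals entered as log2(signal + 16). Probe sets whose mean of these log2 values lay at or above the median (equal to a signal of 55.4) were tested. The test was limma 3.58.1 in R 4.3.3 (lmFit, eBayes with trend, 2 residual and 9.04 prior degrees of freedom). It was two-sided, with Benjamini-Hochberg over 27307 probe sets and a threshold of 0.05. The number of arrays limits the precision. The script was tested on simulated data.

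The members and lists were chosen with earlier results of these data known. The text names all members, SPINT1, TP63, TP73 and, in each of the 2 further lists, up to 6 called genes with the largest moderated statistic; marker genes were checked apart. Some genes that this rule or the marker lists hold are not reported here.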

Additional observations from a re-analysis of the deposited data

How the results depend on the processing

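The 13 other settings changed the number of calls more than the directions. CCNG1 and GADD45A passed under all 13, with adjusted p up to 0.015 and 0.046. The other 6 called members kept their direction under all 13 but each lost the call under at least 3. Without the filter, which doubles the tests, 2211 probe sets passed limma's test (921 higher, 1290 lower), against 4244 as reported (1977 and 2267). Of the p53 targets 3 then passed (1 rose, 2 fell), of the further p53-induced genes 11 (4 and 7) and of the regulators 0 (at an unadjusted p under 0.05, 3 rose and 6 fell). Without the variance trend limma called 1517 probe sets (630 and 887), 2 targets (0 rose, with 4 at an unadjusted p under 0.05, and 2 fell), 10 further genes (4 and 6) and 0 regulators (2 and 4 unadjusted); the cause was not tested. Leaving out 1 array at a time gave 2200 to 4751 probe sets (1036 to 2197 higher, 1164 to 2579 lower), 2 to 9 targets (0 to 3 rose, 2 to 6 fell), 11 to 25 further genes (5 to 11 and 6 to 14) and 0 to 10 regulators (0 to 6 and 0 to 5), with the spread of the lone array taken from the other group. The lowest counts of probe sets came without control array 1, when limma called 0 targets higher (4 unadjusted) and 0 regulators (1 and 4 unadjusted).

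Directions reversed only for genes that had not passed. With 1 array left out, CDKN1A ranged from -0.20 to 0.02, TP53I3 from -0.23 to 0.13, SESN1 from -0.14 to 0.19, SESN2 from -0.15 to 0.30, TP63 from -0.12 to 0.069 and TP73 from -0.039 to 0.20 on the log2 scale. With the mean over probe sets BID gave -0.046 and SESN2 -0.094. Pseudocounts of 1 and 64, centring on the median, quantile normalization and the filter on present calls changed no call of a named gene. The number at the end of the sample titles, taken as a replicate block, gave 4365 probe sets called and the same 8 targets. The titles of both groups end in Ex and a number, and the labels do not say what Ex stands for or that same-numbered arrays are paired. The correlation of deviations between same-numbered arrays was -0.03, and the block was not used.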
